A study of Mus musculus with 98 samples.

Results

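Neurotrophins are small secreted proteins that keep neurons alive and adjust their synapses. They are made as longer precursors, and the cleaved and uncleaved forms bind different receptors. The 6 genes described here were given as a list of names, of 24754 gene symbols that all the tables share, and cover ligands, receptors and a sorting partner of the system. Bdnf encodes brain-derived neurotrophic factor and Ntf3 encodes neurotrophin 3. Ntrk2 and Ntrk3 encode TrkB and TrkC, the receptor kinases that chiefly bind them. Ngfr encodes p75, a low-affinity receptor that takes all neurotrophins, and Sort1 encodes sortilin, which binds precursor forms and helps to sort them. In the hippocampus, Bdnf is known as a gene switched on by neuronal activity, from several alternative promoters. Ntrk2 also gives a truncated receptor without the kinase, which astrocytes carry.

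RNA-seq was done on 98 mouse libraries in 22 groups, deposited as 6 tables of gene counts. Primary embryonic hippocampal neurons of strain CD1 received the PhP.eB.upACSS2 virus, which carries the acetyl-CoA synthetase gene Acss2, or the empty PhP.eB-vector, and then hAD-tau or PBS. They were sampled at day 9 or day 21 in vitro at rest, or at day 21 after a stimulus that the labels do not describe, with 3 libraries in each of the 12 groups. A separate day 21 culture without virus gave 4 libraries after hAD-tau and 3 after PBS alone. All mice were male and had 1 of the same viruses by retro-orbital injection. C57BL6 mice aged 22 to 23 months, 12 per virus, gave whole hippocampus 30 min after remote context recall, 2 months after 1.5e11 viral genomes. The labels give their age at injection as 21 to 22 months, and these ages and the 2 months do not match over the whole range. C57BL6 mice of 10 months, 6 with upACSS2 and 5 with vector, gave dorsal hippocampus 30 min after fear conditioning, 2 weeks after 1.2e11 viral genomes. PS19 mice, which carry a mutant human tau transgene under the prion protein promoter, were injected at 2.5 months with 1.5e10 viral genomes and sampled 30 min after contextual recall. PS19 groups had 5 mice each, at 1 month (age 3.5 months) or 6 months (age 8.5 to 9 months) after injection.

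Groups were taken from the titles of the samples, since the treatment entry contradicts the title for several groups. In neurons at rest, that entry gives PBS for the vector groups titled tau and tau for the upACSS2 groups titled PBS, so tau against PBS at rest relies on the titles. In PS19 mice at 1 month it gives vector for all 5 upACSS2 mice and upACSS2 for vector replicate 5. Acss2, the gene on the virus, checked the virus in the titles. It lay at 1496 to 5459 CPM (each count relative to its library's total, on a scale set within each table) in the 18 neuron libraries with upACSS2 and at 40.3 to 57.6 CPM in the 18 with vector. In mice the gap was smaller. Acss2 was at 46.0 to 61.5 against 39.8 to 53.8 CPM in aged mice, at 50.2 to 59.5 against 42.0 to 48.2 CPM in 10-month mice, and at 43.7 to 1461 against 42.7 to 66.1 CPM in PS19 mice. The ranges overlapped in the aged and the PS19 mice and not in the 10-month mice. In PS19 mice at 1 month, Acss2 was at 145, 1188, 318, 60.2 and 1461 CPM in those titled upACSS2. It was at 66.1, 51.3, 52.9, 51.1 and 52.4 CPM in those titled vector, so it does not settle the title of upACSS2 replicate 4. At 6 months Acss2 was at 241, 99.8, 43.7, 56.6 and 111 CPM with upACSS2 and at 46.3, 56.3, 42.7, 45.2 and 50.9 CPM with vector. Replicates 3 and 4 with upACSS2 at 6 months thus showed no clear excess of Acss2. The PS19 upACSS2 mice at 1 month are labelled whole hippocampus and the other PS19 groups dorsal hippocampus, and the part taken and the virus cannot be told apart at that time. The same limit holds for time with upACSS2 and for the test of virus by time. Library totals spanned 14603730 to 39985460 counts in virus-treated neurons, 5683314 to 29890248 in the culture without virus and 5075099 to 33259982 in mice. In cultures the 6 neuronal markers summed to 1880 to 6740 CPM and the 10 markers of astrocytes to 2330 to 21300 CPM, so astrocyte RNA was present too. In bulk RNA, fewer cells of a type and less RNA per cell cannot be told apart. Nothing in the labels says that libraries of a group came from separate cultures, so p-values in neurons measure only the spread between those libraries.

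In GRCm38 (annotation GENCODE vM21), Bdnf spans chr2:109674700-109727007 on the plus strand, Ntf3 chr6:126101412-126166910 on the minus strand, and Ntrk2 chr13:58806569-59133970 on the plus strand. Ntrk3 spans chr7:78175959-78738012 and Ngfr chr11:95568818-95587735, both on the minus strand, and Sort1 spans chr3:108284082-108361511 on the plus strand. Antisense genes touch exons of Bdnf (Gm45346), Ntrk2 (4930415C11Rik) and Sort1 (Gm12523). The strand setting of the counting is not given in the sources used here, so reads of these partners cannot be told apart. Gm39038 lies on the strand of Ntrk3 and touches an exon of it, so reads there could belong to either gene whatever the setting. The counts are per gene, so they do not separate the starts of Bdnf or the full and truncated forms of Ntrk2.

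RefSeq (GRCm38.p6) gave 11 start sites for 4 members, 7 of them in Bdnf, 2 in Ntf3 and 1 each in Ntrk2 and Ngfr. The 250 bases before each start were searched on both strands for the cAMP response element TGACGTCA, its shorter form TGACG (which the full element contains), the AP-1 motif TGANTCA, the E-box CACGTG and the EGR motif GCGTGGGCG. Only 3 of the 11 windows held a match. The 2 Bdnf windows with a match are printed because Bdnf is the member that differed with stimulation. Capitals mark the matches.

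Bdnf start 2, chr2:109676782-109677031, plus strand: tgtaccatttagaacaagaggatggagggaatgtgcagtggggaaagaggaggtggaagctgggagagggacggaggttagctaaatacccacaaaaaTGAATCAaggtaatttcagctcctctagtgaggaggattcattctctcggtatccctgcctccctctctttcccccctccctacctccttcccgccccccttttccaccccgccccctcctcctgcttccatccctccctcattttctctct
Bdnf start 3, chr2:109692186-109692435, plus strand: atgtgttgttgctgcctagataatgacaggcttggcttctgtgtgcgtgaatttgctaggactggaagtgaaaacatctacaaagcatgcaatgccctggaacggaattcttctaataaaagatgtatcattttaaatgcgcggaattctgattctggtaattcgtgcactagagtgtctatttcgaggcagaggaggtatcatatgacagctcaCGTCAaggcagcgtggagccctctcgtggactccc

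The AP-1 match lies 152 bases before Bdnf start 2, and 6.75% of 32851 windows of the same length hold that motif. The shorter response element lies 35 bases before Bdnf start 3, read on the opposite strand, and 17.8% of windows hold it. The third match was an E-box 231 bases before an Ntf3 start, a motif that 6.02% of windows hold. No window of the members held the full response element or the EGR motif, which are in 1.55% and 0.536% of windows. These letters are a description of the sequence, not sites shown to be bound.

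Compared per kilobase of exon, the members kept very different levels. In 10-month mice with vector, Sort1 stood at 89.2 ± 10.3, Ntrk2 at 30.7 ± 2.49, Bdnf at 11.8 ± 2.01, Ntrk3 at 5.61 ± 0.844, Ntf3 at 4.18 ± 1.28 and Ngfr at 0.666 ± 0.248 CPM per kilobase (SD, n = 5). In resting day 9 neurons with vector and PBS the order changed for the lower members: Ntf3, at 5.08 ± 0.656, stood above Ntrk3, at 2.85 ± 0.216 CPM per kilobase (SD, n = 3). The divisor was all annotated exons of a gene merged, 30170 bases for Ntrk3 and 1714 for Ntf3. Before division Ntrk3 stood at 86.1 and Ntf3 at 8.71 CPM in that group, so the order of these 2 rests on the divisor. Bdnf varied most, with group means from 33.6 to 287 CPM, an 8.55-fold span over the 22 groups. Ntf3 spanned 6.70-fold, Ngfr 4.43-fold, Ntrk2 3.17-fold, Sort1 3.07-fold and Ntrk3 2.84-fold. These levels cross tables that were scaled separately, and 1 scaling over all 98 libraries moved single means by up to 12.3%.

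When the 22 group means of a member were put in order, most neighbours did not differ beyond their spread. For Bdnf the only step of 21 larger than the larger of the neighbours' SDs was the one below the 4 stimulated groups. For Sort1 it was the step from the mice down to the cultures, for Ntrk2 the step from the lowest mouse group (10-month vector) down to day 9 neurons, and for Ntf3 the step below the culture without virus with PBS, down to the one with tau. Ntrk3 and Ngfr had no such step.

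**Figure D1:**
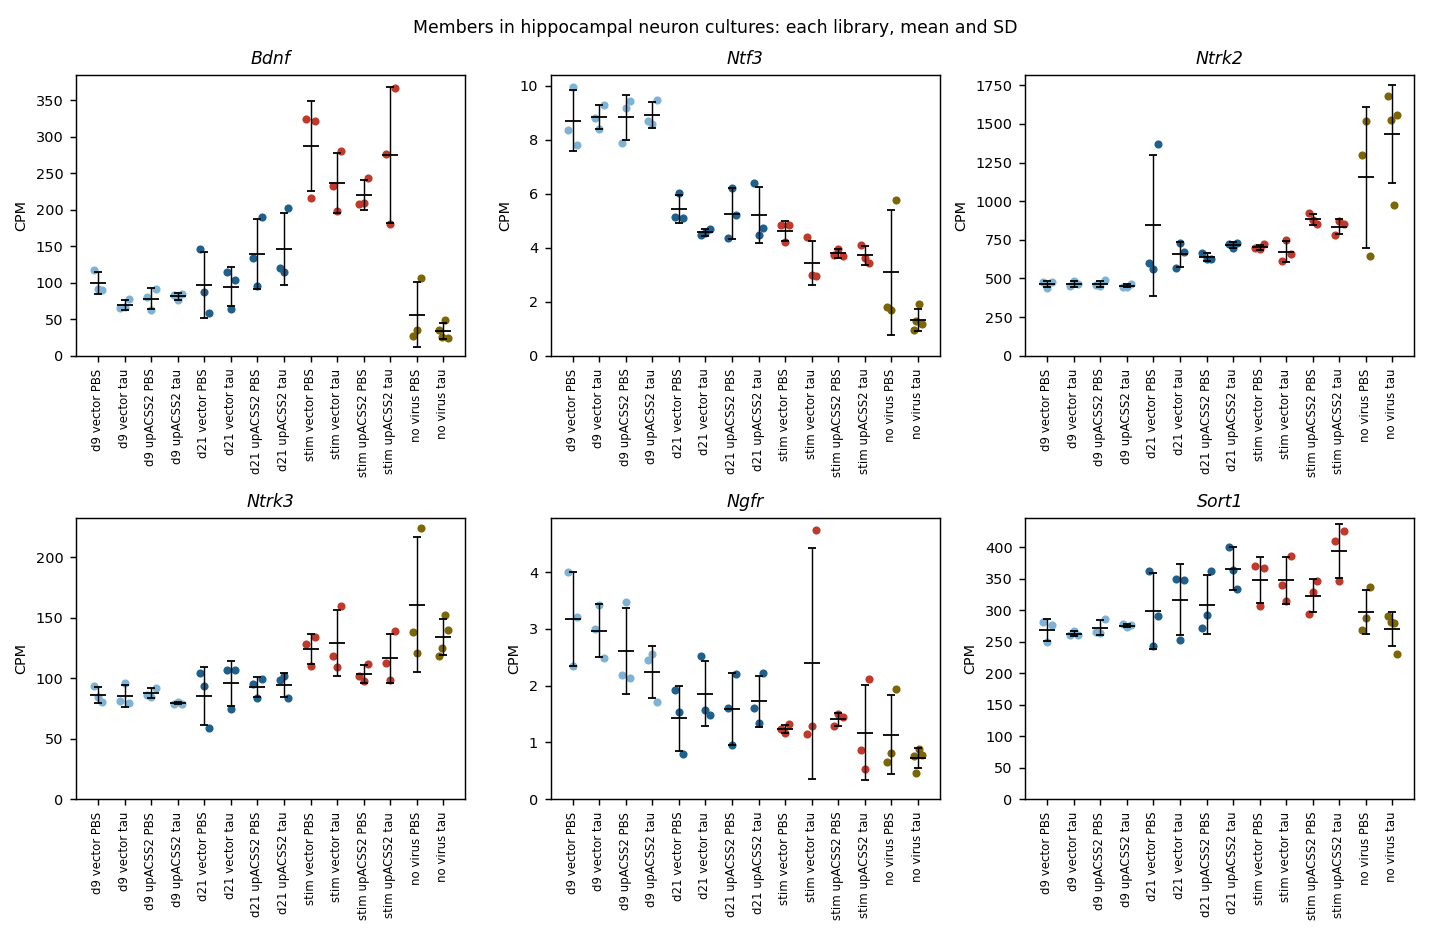
CPM of the 6 members in each neuron library (points, 43 libraries) by group, with the mean and SD of each group in black; light blue is resting day 9, dark blue resting day 21, red stimulated day 21 and brown the culture without virus. Bdnf is highest in the stimulated groups, Ntf3 is highest at day 9, and Ntrk2 is lowest at day 9.

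Between day 9 and day 21 Ntf3 fell in resting neurons of all 4 groups and Ntrk2 rose, with an adjusted p under 0.05 in 3. All 12 day 21 libraries, at 4.35 to 6.39 CPM of Ntf3, lay below all 12 day 9 libraries, at 7.79 to 9.96 CPM. For Ntrk2 all 12 day 21 libraries, at 560 to 1370 CPM, lay above all 12 day 9 libraries, at 441 to 488 CPM. The question of age in culture touches most genes: 57.7% of genes tested passed the threshold (an adjusted p under 0.05) in vector with PBS, 52.6% in vector with tau, 54.3% in upACSS2 with PBS and 53.6% in upACSS2 with tau. Of the 6 members, 3, 2, 2 and 4 passed in the same order, which lies around that background, so the values below describe these genes and do not set them apart from the rest.

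Ntf3, the ligand of TrkC, fell in all 4 groups. With vector and PBS it stood at 8.37, 9.96 and 7.79 CPM at day 9 and at 5.16, 6.04 and 5.11 CPM at day 21, with no overlap. Its log2 level fell by 0.68, with SE 0.148 and adjusted p = 0.000553 (edgeR quasi-likelihood test, Benjamini-Hochberg adjustment). Ntf3 fell by 0.95 with vector and tau (adjusted p = 2.68e-05, edgeR), fell by 0.75 with upACSS2 and PBS and fell by 0.78 with upACSS2 and tau. The call for Ntf3 held in each of these 4 comparisons with any 1 library left out.

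Ntrk2, the receptor of BDNF, rose past the threshold in 3 of the 4 groups. With upACSS2 and tau it stood at 447, 448 and 463 CPM at day 9 and at 726, 697 and 729 CPM at day 21, which gave a log2 ratio of 0.66 (SE 0.198, adjusted p = 0.00778, edgeR). With vector and tau the log2 fold change was 0.49 (SE 0.197, adjusted p = 0.041, edgeR). That call was lost without replicate 2 or 3 of day 21 or any 1 of day 9 (adjusted p from 0.0722 to 0.149, edgeR). With upACSS2 and PBS it was 0.45 (SE 0.197) and missed the threshold (adjusted p = 0.0593, edgeR), although all 3 day 21 libraries lay above all 3 of day 9. With vector and PBS the log2 fold change was 0.85 (SE 0.198, adjusted p = 0.00112, edgeR), and 1 library carried most of it. Its day 21 libraries stood at 599, 560 and 1372 CPM. Without replicate 3 the value was 0.32 (adjusted p = 0.00355, edgeR), and with only the 2 groups in the fit the call was lost (adjusted p = 0.0679, edgeR).

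Astrocyte markers moved with Ntrk2 in the same libraries. The 10 markers of astrocytes summed to 2330 to 2910 CPM in the 12 day 9 libraries and 3770 to 21300 CPM in the 12 day 21 libraries, again with no overlap. The highest library in both was replicate 3 of day 21 vector with PBS, with 21348 CPM of astrocyte markers against 8260 and 4832 CPM in its group. The 6 general neuronal markers went the other way, at 6110 to 6740 CPM at day 9 and 3020 to 5090 CPM at day 21. Markers of inhibitory neurons were higher at day 21, at 1050 to 1730 against 543 to 683 CPM. Those of excitatory neurons overlapped, at 1850 to 4480 against 2560 to 3010 CPM. Oligodendrocyte precursor markers were also higher at day 21, at 801 to 1640 against 156 to 296 CPM. Mature oligodendrocyte markers were at 188 to 1250 against 36.0 to 45.7 CPM. The part of all these markers in the Ntrk2, Ntf3 and other day differences was not tested.

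**Figure D2:**
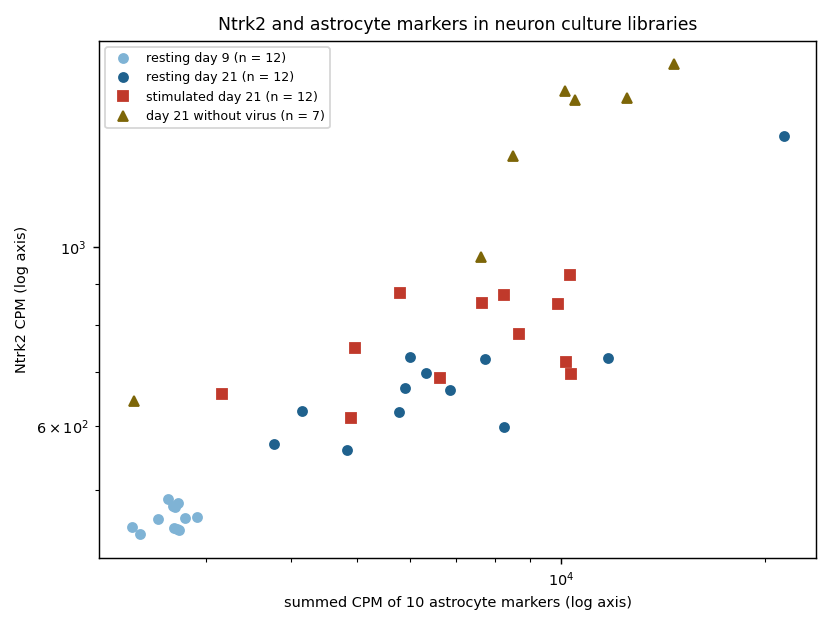
Ntrk2 CPM (vertical, log axis) against the summed CPM of 10 astrocyte markers (horizontal, log axis) in the 43 neuron culture libraries, 1 point per library. The day 9 libraries lie at the lower left, at or below 488 CPM of Ntrk2, and 1 resting day 21 library with 21348 CPM of markers lies at the far right.

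Bdnf rose from day 9 to day 21 in the upACSS2 groups. With upACSS2 and PBS it stood at 80.4, 62.7 and 90.8 CPM at day 9 and at 134, 94.96 and 190 CPM at day 21, a log2 ratio of 0.83 (SE 0.296, adjusted p = 0.0222, edgeR). With upACSS2 and tau it stood at 83.3, 76.2 and 85.1 CPM and then at 120, 114 and 202 CPM, a log2 ratio of 0.84 (SE 0.295, adjusted p = 0.0216, edgeR). In both, all day 21 libraries lay above all of day 9, and replicate 3 was the highest by far. Without that replicate the log2 fold changes were 0.55 (adjusted p = 0.144, edgeR) and 0.51 (adjusted p = 0.17, edgeR), and both calls were lost. Both were also lost without day 9 replicate 1 (adjusted p = 0.0501 and 0.0502, edgeR) or replicate 2 (adjusted p = 0.093 and 0.0647, edgeR).

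With vector, Bdnf did not pass. The day 21 libraries with PBS stood at 146.5, 87.9 and 57.8 CPM, on both sides of day 9 at 117, 91.0 and 90.4 CPM, and the log2 fold change was -0.03 (95% interval -0.642 to 0.58). With vector and tau it was 0.43 (95% interval -0.184 to 1.05). A rise past the threshold with upACSS2 and not with vector is not a difference between the viruses, so that difference was tested, as a comparison chosen after the values were seen. The day difference of Bdnf was larger with upACSS2 by 0.86 on the log2 scale with PBS (95% interval -0.00367 to 1.73, adjusted p = 0.394, edgeR) and by 0.40 with tau (95% interval -0.465 to 1.27, adjusted p = 0.879, edgeR). Neither passed, and no other member did, beside backgrounds of 0.0404% with PBS and 0% with tau, where 982 genes had an unadjusted p under 0.05 in edgeR and DESeq2 called 3.

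Of the other receptors, Ngfr passed as a fall in 1 group, Sort1 as a rise in 1 and Ntrk3 in none. Ngfr was scarce, at 22 to 129 counts per library in resting neurons, and 8 of the 12 day 21 libraries lay below all of day 9. It fell by 1.21 (log2) with vector and PBS (SE 0.339, adjusted p = 0.00465, edgeR), from 4.0, 2.34 and 3.20 CPM to 1.93, 1.54 and 0.794 CPM. In the other 3 groups the Ngfr differences were -0.36 to -0.71 and did not pass. Sort1 passed with upACSS2 and tau, where it rose from 277, 273 and 276 CPM to 401, 363 and 333 CPM (log2 fold change 0.41, SE 0.135, adjusted p = 0.0154, edgeR). Without replicate 1 of day 21 that call was lost (adjusted p = 0.073, edgeR). In the other groups Sort1 was also higher, by 0.15 to 0.27, and did not pass. Ntrk3 had log2 differences of -0.01 to 0.25.

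**Figure D3:**
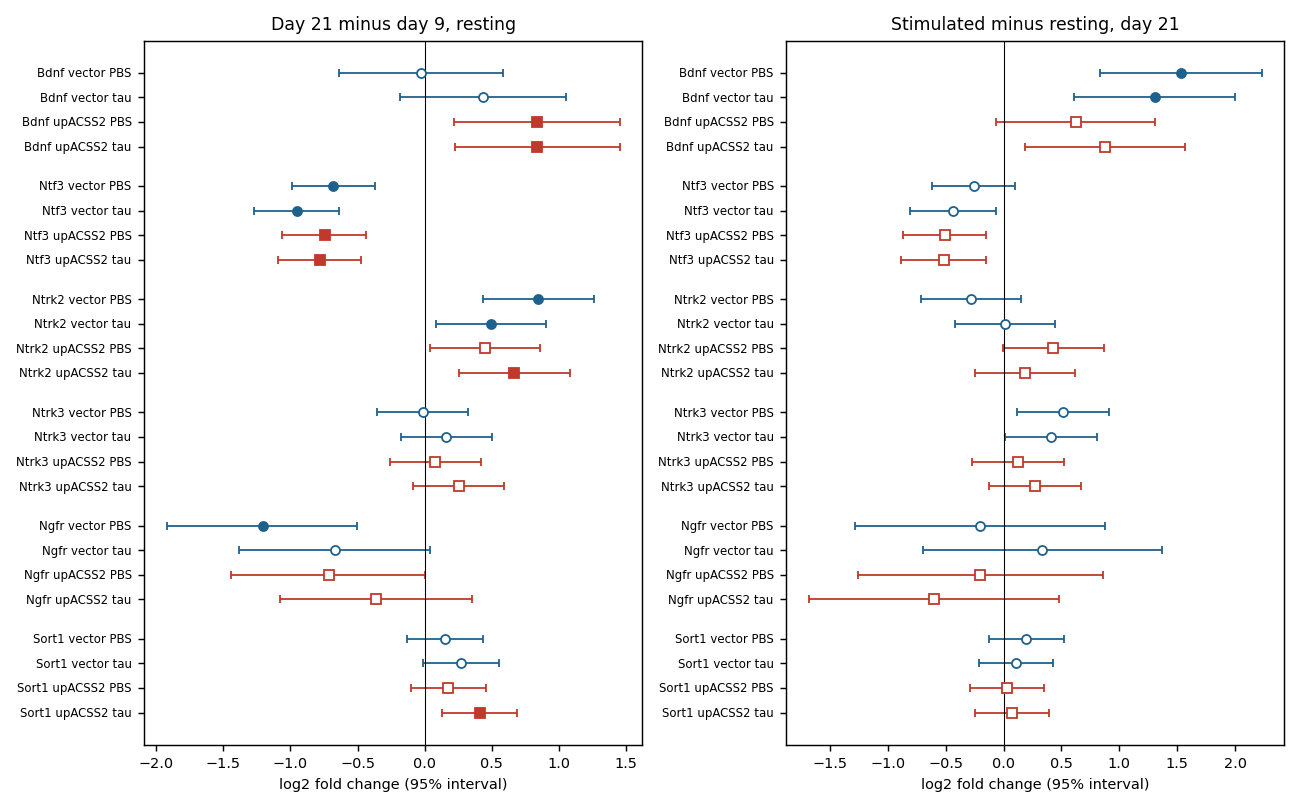
Log2 fold changes with 95% intervals (horizontal) of the 6 members for day 21 minus day 9 in resting neurons (left) and stimulated minus resting at day 21 (right); blue circles are vector, red squares upACSS2, and filled symbols passed the threshold. Ntf3 is filled in all 4 rows on the left, and on the right only the 2 vector rows of Bdnf are filled.

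Ntf5, the gene of neurotrophin 4/5, had at most 34 counts in any library and was not tested. Over all genes, 27.2% to 30.6% rose and 24.9% to 27.1% fell in the 4 day comparisons, and the counts of the pathway lists are read beside these shares. In the list of the sortilin family and co-receptors, all 10 genes were tested and 2 to 4 rose and 2 to 4 fell in each day comparison. The median log2 difference of that list ran from -0.20 to 0.01, beside 0.01 to 0.05 over all genes. Sorl1, a sortilin relative that sorts cargo in endosomes, differed by 1.03 (SE 0.199) with vector and PBS and by 1.43 (SE 0.2) with upACSS2 and tau. Sorcs3 rose by 1.03 to 1.65 over the 4 groups, and Islr2, a Trk partner in axons, fell by 2.20 to 2.57.

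Of 12 genes that cut or sort the precursors, 5 or 6 rose and 1 to 3 fell, with medians from 0.15 to 0.40. Pcsk5, a proprotein convertase, fell by 1.97 with upACSS2 and PBS and fell by 1.86 with vector and PBS. The related Pcsk6 rose by 1.24 with vector and PBS, and Pcsk1, a convertase of secretory granules, rose by 0.97 and 1.15 with upACSS2. Of 35 adaptors and kinases below the Trk receptors, 3 to 6 rose and 19 to 21 fell, with medians from -0.27 to -0.34, beside 0.01 to 0.05 over all genes. Gab1, a docking adaptor, rose by 1.31 with vector and PBS, and Mapk7, a kinase also called ERK5, fell by 1.26. Of 11 adaptors of p75, 4 to 7 rose and 1 to 3 fell, among them Irak1, which rose by 1.14 to 1.35. Of 17 genes of Bdnf regulation, 7 to 9 rose and 4 to 6 fell, and Bhlhe40, a transcriptional repressor, rose by 1.37 to 1.66. Of 17 activity genes, 9 to 13 rose and 1 or 2 fell, with medians from 0.51 to 1.48, and Arc, a gene of synaptic plasticity, rose by 2.01 to 2.83.

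Stimulated neurons with vector held more Bdnf than resting ones, with PBS and with tau. The 12 stimulated libraries had 180 to 366 CPM of Bdnf (median 238) and the 12 resting day 21 libraries 57.8 to 202 CPM (median 115), and 10 of the 12 stimulated libraries lay above every resting one. The stimulated libraries were deposited as a table of their own, so stimulation and whatever else differed between the tables cannot be told apart. Genes past the threshold were 7.14% of those tested with vector and PBS, 2.83% with vector and tau, 3.7% with upACSS2 and PBS and 2.35% with upACSS2 and tau. Of the 6 members, Bdnf alone passed, in both vector comparisons.

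With vector and PBS, Bdnf stood at 324, 216.5 and 322 CPM stimulated and at 146.5, 87.9 and 57.8 CPM resting. The groups did not overlap, and the log2 fold change was 1.54 (SE 0.336, adjusted p = 0.00789, edgeR). With vector and tau the libraries stood at 232, 198 and 281 CPM against 115, 64.3 and 103 CPM, a log2 ratio of 1.31 (SE 0.334, adjusted p = 0.0366, edgeR), again with no overlap. When only the groups compared entered the fit, neither passed (adjusted p = 0.101 and 0.0512, edgeR), and with any 1 of its 6 libraries left out the vector and tau comparison did not pass.

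With upACSS2 the Bdnf differences were smaller and did not pass. With PBS the libraries stood at 208, 209 and 244 CPM stimulated and at 134, 94.96 and 190 CPM resting, without overlap (log2 fold change 0.62, 95% interval -0.0639 to 1.31, adjusted p = 0.362, edgeR). With tau they stood at 277, 180 and 366 CPM against 120, 114 and 202 CPM, and 1 stimulated library lay below a resting one (log2 fold change 0.88, 95% interval 0.188 to 1.57, adjusted p = 0.267, edgeR). The test of the difference between the viruses, chosen after these values were seen, gave a stimulation difference of Bdnf lower with upACSS2 by 0.91 with PBS (-0.91, 95% interval -1.88 to 0.0577, adjusted p = 0.707, edgeR) and by 0.43 with tau (-0.43, 95% interval -1.4 to 0.542, adjusted p = 1, edgeR). Neither passed, and neither did any gene of the table (0% in both). With an unadjusted p under 0.05 there were 1024 genes with PBS and 92 with tau in edgeR, and DESeq2 called 0 in both. The comparisons of age and of stimulation share the resting day 21 libraries, so a high resting value raises the former and lowers the latter.

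The activity genes, which answer neuronal firing within minutes to hours, rose with stimulation in all 4 groups. All 17 passed with vector and PBS, 16 with vector and tau and 15 in each upACSS2 comparison, with medians of 2.87 to 3.77 on the log2 scale beside -0.03 to -0.01 over all genes. Fosb rose by 7.08 to 7.32, and Npas4, a factor made by activity that acts on Bdnf, rose by 6.15 to 6.57. Bdnf, at 0.62 to 1.54, lay near the lower end of this list, near Homer1 at 0.70 to 1.44. Of 17 genes of Bdnf regulation, Npas4 among them, 6, 2, 4 and 1 rose in the order of vector with PBS, vector with tau, upACSS2 with PBS and upACSS2 with tau, and 1 fell with upACSS2 and PBS. In the same order 4.65%, 2.38%, 2.37% and 1.74% of all genes rose and 2.5%, 0.457%, 1.33% and 0.609% fell. Srf, an activator of early genes, rose by 0.96 with vector and PBS.

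**Figure D4:**
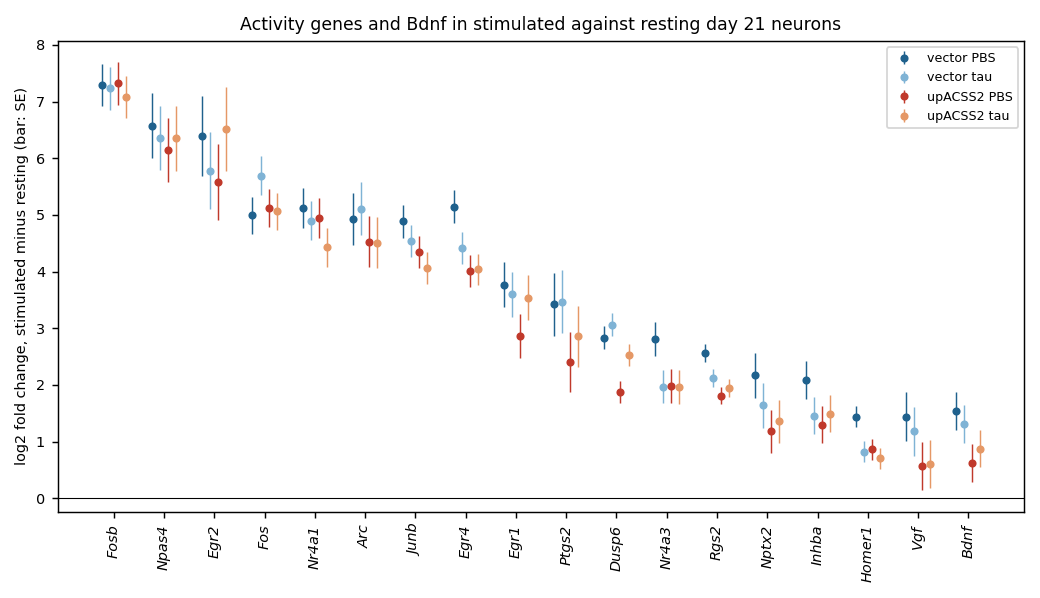
Log2 fold changes, stimulated minus resting day 21 neurons (vertical, bars are SE), for the 17 activity genes in order of their mean and for Bdnf at the right, in 4 colours for the virus and treatment. Fosb lies above 7 in all 4 groups and Bdnf between 0.62 and 1.54.

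Of 12 genes of processing and sorting, 2 rose with vector and PBS and 1 with upACSS2 and PBS. Plat, the gene of tissue plasminogen activator, which starts a cascade that cleaves proBDNF outside the cell, rose by 0.50 with vector and PBS and by 0.53 with upACSS2 and PBS. Pcsk1 rose by 1.38 with vector and PBS. Of the 35 adaptors and kinases, 6, 4, 2 and 2 rose and 0, 0, 1 and 0 fell in the order above, with medians from 0.03 to 0.10, and Irs2, an insulin receptor substrate, rose by 1.70 to 2.29 in all 4. Of 11 adaptors of p75, 1 fell with vector and PBS and 1 with upACSS2 and tau. None of the 10 genes of the sortilin family and co-receptors passed in any of the 4.

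The other members did not pass with stimulation, though Ntf3 was lower in each group. With upACSS2 and PBS, Ntf3 stood at 3.72, 3.97 and 3.68 CPM stimulated and at 4.35, 6.23 and 5.23 CPM resting. In each of the 4 comparisons all 3 stimulated libraries lay below all 3 resting ones, with log2 differences of -0.26 to -0.52 and adjusted p-values of 0.119 to 0.366 (edgeR). Ntrk3 differed by 0.13 to 0.52, with all 3 stimulated libraries above all 3 resting ones in both vector comparisons (adjusted p = 0.103 and 0.328, edgeR). Ntrk2 differed by 0.43 and 0.18 with upACSS2, where all 3 stimulated libraries lay above all 3 resting ones, and by -0.28 and 0.01 with vector. Sort1 differed by 0.03 to 0.20. Ngfr stood at 15 to 104 counts in the stimulated libraries, and its intervals span more than 2 log2 units.

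No member differed past the threshold between upACSS2 and vector in neurons at rest. At day 9 the background was 0.0135% of genes with PBS and 0.00673% with tau, and at day 21 it was 10.6% with PBS and 3.55% with tau. In the PBS groups at day 21, Bdnf averaged 139 ± 47.6 CPM under upACSS2 and 97.4 ± 45.1 CPM under vector. In the tau groups it averaged 145.5 ± 49.3 and 94.3 ± 26.6 CPM (SD, 3 libraries each). The log2 differences were 0.51 (95% interval -0.0968 to 1.12, adjusted p = 0.251, edgeR) and 0.62 (95% interval 0.00824 to 1.23, adjusted p = 0.235, edgeR), with overlap in both. The Ntrk2 difference at day 21 with PBS was -0.39 and depended on replicate 3 of the vector group, the library rich in astrocyte markers: without it the value was 0.13. Without replicate 1 of that group Bdnf and Ntrk2 passed, and without replicate 2 Ntrk2 passed. At day 9 the Bdnf libraries with PBS stood at 80.4, 62.7 and 90.8 CPM with upACSS2 and at 117, 91.0 and 90.4 CPM with vector. The difference was -0.35 (SE 0.295, adjusted p = 0.97, edgeR). When only day 9 libraries entered the fit, it was -0.36 and passed (adjusted p = 0.0213, edgeR). The share of all genes called in that smaller fit is not given here, and the background above belongs to the fit of both days.

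Around the members, the activity genes Dusp6, Egr4 and Rgs2 rose by 0.91, 0.88 and 0.75 with upACSS2 at day 21 with PBS, among 4 of 17 that rose and 0 that fell. Homer1, a postsynaptic scaffold gene, rose by 0.68 with tau. The kinase gene Rps6ka1 fell by 0.61 with PBS and by 0.48 with tau, and Mapk3, the gene of ERK1, fell by 0.50 with tau. Of the 35 adaptors and kinases, 3 rose and 3 fell with PBS, and 0 rose and 2 fell with tau. Over all genes 4.54% rose and 6.06% fell with PBS, and 1.38% rose and 2.17% fell with tau. The counts of these lists are read beside those shares and do not set a list apart. Of the p75 adaptors 1 rose and 1 fell with PBS, and of the Bdnf regulators Mef2c alone rose, by 0.52. No gene of these lists passed at day 9.

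In stimulated neurons the value nearest the threshold was that of Ntrk2. It stood at 923, 876 and 850 CPM with upACSS2 and at 696, 689 and 721 CPM with vector in the PBS groups, a log2 difference of 0.32 (SE 0.0813, 95% interval 0.145 to 0.499, adjusted p = 0.112, edgeR). In the tau groups it stood at 780, 873 and 852 against 614, 749 and 658 CPM, a difference of 0.31 (SE 0.0814, 95% interval 0.129 to 0.483, adjusted p = 0.0866, edgeR). All 3 upACSS2 libraries lay above all 3 vector libraries in each, and DESeq2 called both (adjusted p = 0.0119 and 0.013). The background by edgeR was 0.208% with PBS and 0.937% with tau. The share of all genes that DESeq2 called there is not given here, so its 2 calls stand without a background. Markers of astrocytes summed to 7663 to 8671 CPM with upACSS2 and 3166 to 4972 CPM with vector in the tau groups, and overlapped in the PBS groups (5802 to 10334 against 6632 to 10354 CPM). Their part in the Ntrk2 difference was not tested. The other 5 members differed by -1.04 (Ngfr with tau) to 0.21 (Bdnf with tau), and none passed. Without replicate 3 of vector with tau, which held 4.74 CPM of Ngfr, the Ngfr difference was -0.07, and over the libraries left out in turn it ran from -1.79 to -0.07. Mapk3 fell by 0.45 with tau, the only gene of the pathway lists to pass in either.

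No member passed between tau and PBS in virus-treated neurons. The background for tau against PBS was 0.00673% with vector and 0% with upACSS2 at day 9, 0.195% and 0.0538% at day 21, and 3.02% and 0.208% in stimulated neurons. At day 9 with vector, Bdnf stood at 64.9, 66.2 and 78.0 CPM with tau and at 117, 91.0 and 90.4 CPM with PBS, without overlap. The log2 difference was -0.51 (95% interval -1.12 to 0.112, adjusted p = 1, edgeR). In the fit with day 9 libraries alone it was -0.52 and passed (adjusted p = 0.00574, edgeR). The background above belongs to the fit of both days, and the share of all genes called in the day 9 fit is not given here. The 3 tests of whether tau acts differently under the 2 viruses called no gene at day 9, day 21 or after stimulation (0% in each). In edgeR 376, 2618 and 2135 genes had an unadjusted p under 0.05 there, and DESeq2 called 0, 450 and 123. For tau against PBS with upACSS2 at day 9 these numbers were 181 and 0.

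In the stimulated vector groups, where tau changed the most genes, none of the members passed. Ntf3 stood at 4.39, 3.001 and 2.96 CPM with tau and at 4.83, 4.20 and 4.84 CPM with PBS, a log2 difference of -0.42 (adjusted p = 0.165, edgeR). Ngfr differed by 0.96 (adjusted p = 0.299, edgeR), with replicate 3 of tau at 4.74 CPM beside 1.15 and 1.29 CPM. Without that library the Ngfr difference was -0.01. Homer1, Crem and Plat fell by 0.54, 0.81 and 0.50, and Irs2 and Irs1 fell by 0.64 and 0.53. These 5 were the only genes that passed in the lists of activity, Bdnf regulation, processing, and adaptors and kinases. Over all genes 1.26% rose and 1.76% fell. With the replicate number as a block, the genes called in this comparison went from 451 to 1069, and those called for upACSS2 against vector in stimulated tau neurons from 140 to 399, with no member among them in either.

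The culture without virus had the highest mean Ntrk2 and the lowest mean Ntf3, set beside tables that were scaled separately. The steps from its PBS group to the nearest group of another table lay within the spread. With tau, Ntrk2 stood at 1682, 1527, 973 and 1559 CPM, and with PBS at 1296, 1519 and 645 CPM. Ntf3 stood at 0.967, 1.29, 1.91 and 1.16 CPM with tau and at 1.80, 1.71 and 5.77 CPM with PBS. Tau and PBS did not differ past the threshold for any gene (0%), while 2272 genes had an unadjusted p under 0.05 in edgeR and DESeq2 called 299, with no member among them.

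Replicate 3 of the PBS group of that culture stood apart from its group in Bdnf, Ntf3, Ntrk2, Ntrk3 and Ngfr. Sort1 varied less in that group, at 297 ± 35.1 CPM (SD, n = 3). Replicate 3 held 107 CPM of Bdnf against 27.5 and 34.7, 224 CPM of Ntrk3 against 138 and 120, and 1.94 CPM of Ngfr against 0.656 and 0.820. Its markers of astrocytes summed to 2348 CPM against 8516 and 10486 CPM, and those of oligodendrocyte precursors to 89.97 CPM against 1654 and 2049 CPM. With all libraries, Ntf3 differed by -1.27 (adjusted p = 0.338, edgeR) and Bdnf by -0.78 (adjusted p = 0.464, edgeR). Without that library the differences were -0.40 for Ntf3 and 0.08 for Bdnf, and those of the other members lay between -0.10 and 0.04.

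In mouse hippocampus no member passed between upACSS2 and vector. The background was 0% of genes in aged mice, 10-month mice and PS19 mice at 1 month and at 6 months. Acss2, the gene on the virus, thus did not pass by edgeR either. Its medians with upACSS2 and vector were 55.3 and 48.1 CPM in aged mice and 57.4 and 42.5 CPM in 10-month mice. In PS19 mice of both times they were 127.7 and 51.2 CPM. The absence of calls covers only the excess of Acss2 reached in these samples. The number of genes with an unadjusted p under 0.05 in edgeR was 846, 1204, 463 and 2237 in that order, and DESeq2 called 0, 4, 1 and 136, with no member among them.

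**Figure D5:**
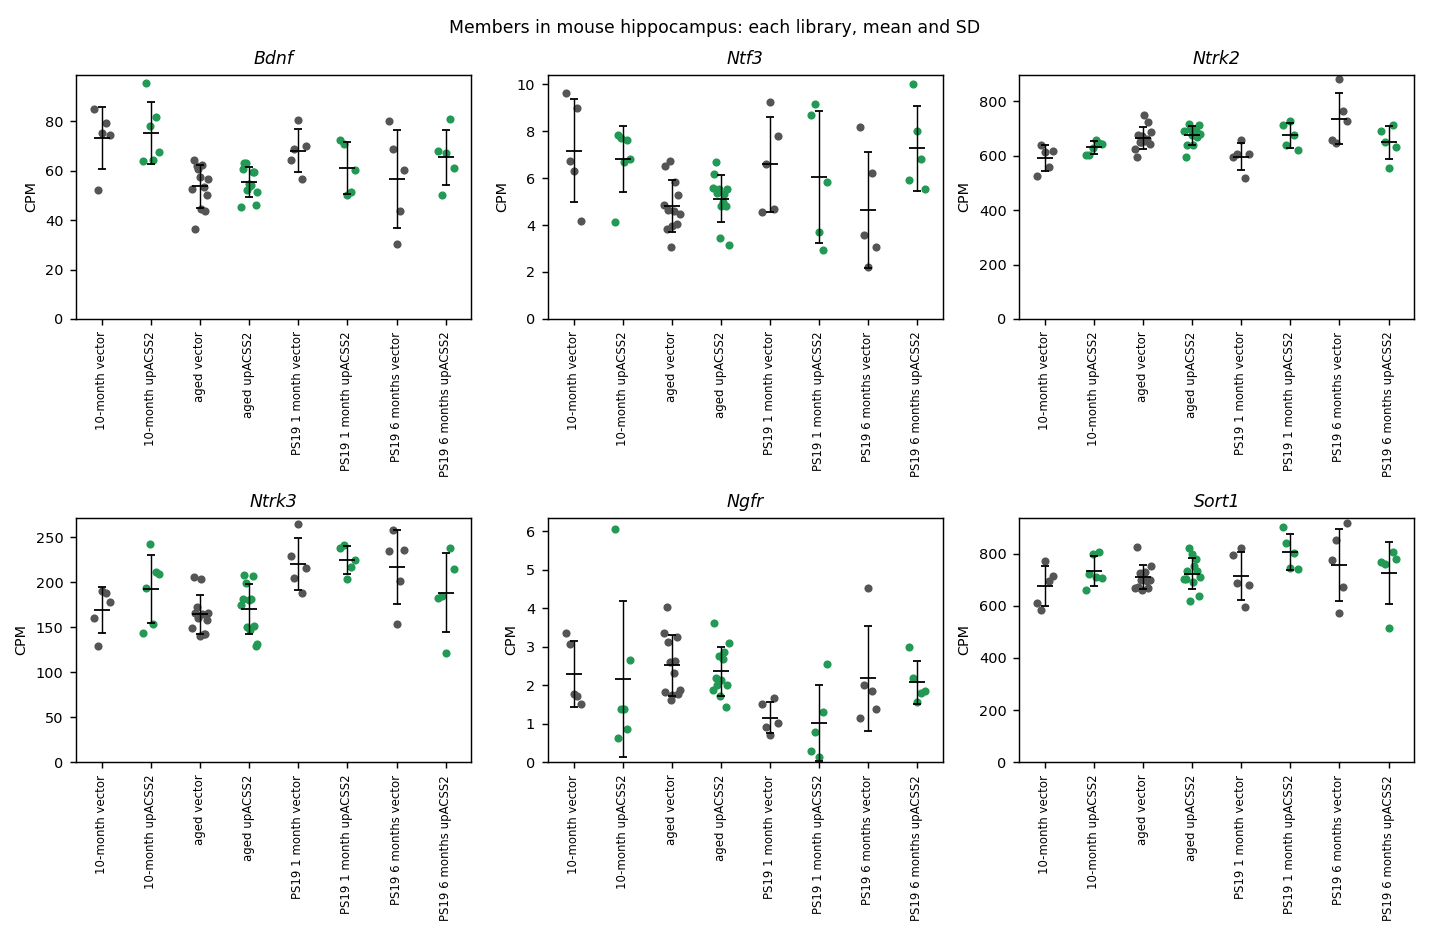
CPM of the 6 members in each of the 55 mouse libraries (points) by group, grey for vector and green for upACSS2, with the mean and SD in black. Vector and upACSS2 overlap for every member in every cohort.

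The aged mice, with 12 per group, gave the narrowest limits. Bdnf ranged from 45.3 to 63.4 CPM (median 54.4) with upACSS2 and from 36.6 to 64.5 CPM (median 54.9) with vector. The log2 difference was 0.04 (SE 0.0791, 95% interval -0.122 to 0.203). For Ntrk2 the medians were 685 and 658 CPM and the difference 0.02 (95% interval -0.0543 to 0.0925). For Sort1 it was 0.02 (95% interval -0.0679 to 0.117), for Ntrk3 0.05 (-0.121 to 0.22), for Ntf3 0.08 (-0.185 to 0.342) and for Ngfr -0.09 (-0.433 to 0.255). With a term for replicates 1 to 3 or with replicates 4 to 12 alone, no member passed either.

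In 10-month mice, Bdnf ranged from 64.1 to 95.8 CPM (median 72.8) with upACSS2 and stood at 84.9, 52.2, 75.3, 79.5 and 74.6 CPM with vector, a log2 difference of 0.02 (95% interval -0.245 to 0.289). The other members differed by -0.11 (Ntf3) to 0.17 (Ntrk3). In upACSS2 replicate 1 of this cohort, Ngfr was 6.05 CPM and Ntf3 4.15 CPM, outside the range of the other 5, and its 4 choroid plexus markers summed to 5461 CPM beside 86.2 to 208 CPM. Replicate 1 with vector had 4450 CPM of those markers and 3.36 CPM of Ngfr, the highest of its group. The Ngfr difference was -0.10 with all libraries, -0.78 without upACSS2 replicate 1 and 0.11 without vector replicate 1, and passed in none. In PS19 mice at 6 months, choroid plexus markers averaged 2460 CPM with upACSS2 and 206 CPM with vector, while Ngfr averaged 2.08 and 2.18 CPM. The part of the choroid plexus markers in the Ngfr levels was not tested.

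PS19 mice showed the same absence of calls for the virus. At 1 month Ntrk2 stood at 712, 638, 728, 677 and 622 CPM with upACSS2 and at 596, 607, 657, 518.5 and 606 CPM with vector, with a log2 difference of 0.17 (95% interval -0.0148 to 0.36, adjusted p = 0.964, edgeR). At 6 months it stood at 692, 653, 554.5, 715 and 634 CPM against 659, 648, 881, 764 and 729 CPM, a difference of -0.18 (95% interval -0.368 to 0.00611, adjusted p = 0.369, edgeR). The test of virus by time gave -0.35 for Ntrk2 (95% interval -0.619 to -0.0888, unadjusted p = 0.0115, adjusted p = 0.361, edgeR), in a table where no gene passed (0%), 1956 had an unadjusted p under 0.05 in edgeR and DESeq2 called 3. The part of the hippocampus taken differed for the upACSS2 mice at 1 month, and its share in this value cannot be told apart. At 6 months Ntf3 averaged 7.27 ± 1.80 CPM under upACSS2 and 4.65 ± 2.48 CPM under vector (SD, 5 mice each), a difference of 0.65 (95% interval -0.0668 to 1.37).

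Between 1 and 6 months after injection, 7.46% of genes passed in PS19 mice with vector and 0.0442% with upACSS2, and no member did. With upACSS2, whole hippocampus at 1 month is set against dorsal hippocampus at 6 months, so time and the part taken cannot be told apart. The Ntrk2 difference with vector was 0.29 (SE 0.0898, adjusted p = 0.0518, edgeR), with 4 of 5 mice at 6 months above all at 1 month. DESeq2 called it (adjusted p = 0.0224), as did edgeR without replicate 2 at 6 months (adjusted p = 0.0469). The share of all genes called under either setting is not given here. Without replicate 3 of the 6-month vector group it was 0.20 (adjusted p = 0.156, edgeR). That mouse stood apart, with 881 CPM of Ntrk2, 30.3 CPM of Bdnf, 4.53 CPM of Ngfr and 570 CPM of Sort1, with 10903 CPM for the markers of astrocytes (the others 5706 to 8276 CPM) and 3034 CPM for those of excitatory neurons (the others 4555 to 6477 CPM). Their part in the Ntrk2 value was not tested. Ngfr differed by 0.91 with vector and 0.97 with upACSS2, with intervals from -0.11 to 1.93 and from -0.0658 to 2.02. Around the members, Crtc2, a co-activator of CREB, rose by 0.51 with vector. Gab1 rose by 0.62, Hras fell by 0.50, Bex3 (a p75 adaptor) fell by 0.30 and Fndc5 fell by 0.27.

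Set side by side with no test, Sort1 marked the tissue against the cultures most plainly. All 55 mouse libraries, at 515 to 917 CPM, lay above all 43 culture libraries, at 231 to 426 CPM. Ntrk3 also ran higher in mice, at 121 to 264 CPM, than in most cultures, at 58.6 to 224 CPM. Bdnf in mice, at 30.3 to 95.8 CPM, never reached the lowest stimulated culture at 180 CPM. The mice had oligodendrocyte markers at 2980 to 8420 CPM, and the cultures at 36.0 to 1670 CPM. Markers of microglia, at 241 to 783 against 3.1 to 193 CPM, and of CA1, at 300 to 889 against 44.7 to 151 CPM, also lay apart. Those of astrocytes overlapped, at 4400 to 10900 against 2330 to 21300 CPM. The part of these markers in the Sort1 levels was not tested.

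The genes most like each member were taken over the 22 group means, each table centred on its own mean. The groups of a table share libraries' preparation and scaling, and each r is the highest among 11249 or 11250 candidates, so these are descriptions. Bdnf lay nearest Kcnv1, Pcsk1 and Rgs2 (Pearson r = 0.892, 0.865 and 0.862). Ntrk2 lay nearest Tlr3, Itpkb and Als2cl (0.973, 0.971 and 0.97), and Sort1 nearest Elmo2, Ksr1 and Abr (0.955, 0.951 and 0.947). Ntf3 lay nearest Ap1s2, Grb14 and Crcp (0.914, 0.914 and 0.91), Ntrk3 nearest Cyfip2, Numbl and Kcnq3 (0.889, 0.844 and 0.843), and the scarce Ngfr nearest Tmem181b-ps, Zfp955a and Nop14 (0.881, 0.864 and 0.864). Among the members themselves the extremes were -0.82 between Ntf3 and Ntrk2 and 0.68 between Bdnf and Sort1.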

How the data were processed

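The authors deposited 6 tables of raw counts per gene symbol, 1 column per library. All 98 columns were used. STAR, featureCounts, HTSeq, DESeq2 and build mm10 are named in the submitters' processing notes, without a role. Per the labels' protocols, Trizol and RNeasy columns were used for RNA and an NEB kit for the libraries. In the culture without virus an unnamed row took 6.13% to 8.74% of counts and was left out.

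The main test was edgeR's quasi-likelihood F test (edgeR 4.0.16, R 4.3.3), after TMM scaling and filterByExpr at its defaults, with Benjamini-Hochberg adjustment over all genes of a fit. Each fit held all groups of its table, and stimulated against resting used both day 21 tables together. All 6 members passed the filter in all 7 fits. CPM used the TMM-scaled library sizes of each table. The fits were tested on simulated counts with known changes. They missed many small changes, most of all in the culture without virus, so a member that did not pass can still differ.

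The members, lists and motifs were chosen with earlier results of these data known, and 4 tests of whether the viruses differ in their age or stimulation effect were added after values were seen. From each list at most the 3 genes with the largest difference past the threshold and a mean log2 CPM of at least 1 were named, and for each member the 3 genes most like it. Alternatives were DESeq2 1.42.0, RLE scaling, no filter, smaller fits, a replicate block and leaving out each library, except among aged mice, whose replicates 1 to 3 got their own term or were dropped together. Same-numbered libraries deviated together (every correlation over 0.1) in 4 comparisons: stimulated upACSS2 against vector with tau (0.111 to 0.359), stimulated vector with tau against PBS (0.123 to 0.326), stimulated against resting upACSS2 with PBS (0.374 to 0.58) and the culture without virus (0.22 to 0.394). The labels do not say what the numbers share.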

Additional observations from a re-analysis of the deposited data

Results flagged for a closer look

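Within groups of 4 to 10 libraries, Dixon's test at 95% marked 4 of 42 checks of a member, where chance marks about 1 in 20 (2.1 here). In 10-month mice, upACSS2 replicate 1 had the lowest Ntf3, 4.15 CPM beside 6.70 to 7.83 CPM in the other 5, and the highest Ngfr, 6.05 CPM beside 0.639 to 2.65 CPM. In PS19 mice at 6 months, vector replicate 3 had 4.53 CPM of Ngfr beside 1.13 to 2.01 CPM in the other 4. In the same cohort, upACSS2 replicate 3 had 515 CPM of Sort1 beside 760 to 806 CPM, and also the lowest Ntrk3 of its group, at 121 CPM. Its Acss2, at 43.7 CPM, lay within the range of the vector mice at 6 months.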

How the results depend on the processing

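The number of members past the threshold moved in the comparisons named here. For day 21 against day 9 it went from 2 to 1 with vector and tau under RLE scaling, and leaving out 1 library gave 1 to 3 there, 1 to 2 with upACSS2 and PBS and 3 to 4 with upACSS2 and tau. With only the groups compared it went from 2 to 3 with upACSS2 and PBS, from 4 to 5 with upACSS2 and tau and from 3 to 2 with vector and PBS. For stimulated against resting it went from 1 to 0 in both vector comparisons with only the groups compared in the fit, from 1 to 2 with vector and PBS with resting groups of both days in the fit, and from 0 to 1 with upACSS2 and PBS under both of those settings (Ntrk2, then Ntf3). Leaving out 1 library gave 1 to 2 with vector and PBS and 0 to 0 with vector and tau. From 0 to 1 went Bdnf for tau against PBS and for upACSS2 against vector with PBS at day 9, both with only the groups compared or only day 9 libraries, and Ntrk2 under DESeq2 for upACSS2 against vector in both stimulated groups and for 6 months against 1 month in PS19 vector. Leaving out 1 library gave 0 to 2 for upACSS2 against vector at day 21 with PBS, 0 to 1 in stimulated tau neurons and 0 to 1 for PS19 vector over time. The cause was not tested, and the shares of all genes called under these settings are not given here. No called log2 fold change turned its sign. With a replicate block, 3 members passed for day 21 against day 9 with upACSS2 and PBS, where 2 passed without it, and the count of members was the same in every other comparison. Of 132 group means, 10 moved by more than 1 SD with total counts and 15 with 1 scaling over all libraries. Ngfr rests on as few as 2 counts in a library, so its limits are wide.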
